A study of Mus musculus with 20 samples.

Results

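Metallothionein 1 and 2 (Mt1, Mt2), the metal-responsive transcription factor Mtf1 and the zinc exporter Slc30a1 were followed through aged mouse intervertebral disc. They are 4 of the 51789 genes in the deposited table and were found by symbol. The set was chosen by the measured difference between MDL-800 and vehicle in nucleus pulposus, where Mt1 and Mt2 were higher under MDL-800, so that contrast is described here without a test. RNA came from dissected nucleus pulposus (NP), the gel-like centre of the disc, and from annulus fibrosus (AF), the collagen-rich ring that encloses it, in BL6 mice aged 24 months. From 18 months of age, and for 6 months, the mice were injected weekly into the peritoneum with DMSO (vehicle) or with MDL-800 in DMSO. No genetic modification is given in the labels, both arms carried DMSO, and the labels do not give sex, dose per injection or whether a library pools animals. MDL-800 is a small molecule named for its activation of SIRT6, a deacylase of chromatin, and the study's question was what that activation does to the aging disc. There were 5 libraries for each tissue and treatment, 20 in all, and they are named here by tissue, treatment and the number in the labels. Nothing in the labels says that libraries came from separate mice, so p-values measure the spread between these samples.

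Metallothioneins are small cysteine-rich proteins that hold zinc and copper. When free zinc in a cell rises, the zinc-finger factor MTF1 binds metal response elements in DNA and switches on Mt1, Mt2 and Slc30a1, the exporter that moves zinc out across the plasma membrane. Mt1 and Mt2 are also induced by glucocorticoids, by inflammatory signals and by oxidative stress, whereas MTF1 is regulated largely as a protein. In mm10 coordinates (GENCODE M21), Mt2 lies at chromosome 8, 94172664 to 94173568, and Mt1 at chromosome 8, 94179082 to 94180327, on the same strand, with 5514 bases from the end of Mt2 to the start of Mt1. Mtf1 lies at chromosome 4, 124802104 to 124849800, and Slc30a1 at chromosome 1, 191906767 to 191913247. All 4 are protein-coding genes on the plus strand.

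The 250 bases before the RefSeq start (GRCm38.p6, plus strand) are shown for Mt2 (chr8:94172368-94172617), for Mt1 (chr8:94178839-94179088) and for Slc30a1 (chr1:191906531-191906780), the 3 genes that MTF1 is best known to act on. Capitals mark each match to the core of the metal response element, searched as TGCGCNC and TGCACNC on both strands.
Mt2: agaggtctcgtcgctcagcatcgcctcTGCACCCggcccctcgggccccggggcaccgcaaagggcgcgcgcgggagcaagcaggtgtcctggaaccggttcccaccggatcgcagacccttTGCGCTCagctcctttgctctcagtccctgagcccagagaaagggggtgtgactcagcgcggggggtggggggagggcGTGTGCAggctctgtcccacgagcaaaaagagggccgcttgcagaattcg
Mt1: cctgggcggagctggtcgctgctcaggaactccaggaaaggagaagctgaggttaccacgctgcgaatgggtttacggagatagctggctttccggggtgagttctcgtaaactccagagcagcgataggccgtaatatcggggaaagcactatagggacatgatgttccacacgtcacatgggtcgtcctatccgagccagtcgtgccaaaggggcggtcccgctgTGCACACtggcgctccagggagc
Slc30a1: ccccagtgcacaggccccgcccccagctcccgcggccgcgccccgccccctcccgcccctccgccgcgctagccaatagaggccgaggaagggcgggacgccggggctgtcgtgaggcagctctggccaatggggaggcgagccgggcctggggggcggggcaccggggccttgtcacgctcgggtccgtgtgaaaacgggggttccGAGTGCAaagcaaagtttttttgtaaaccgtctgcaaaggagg
In these bases Mt2 held 3 matches and Mt1 and Slc30a1 held 1 each. Counted over the 300-base window of the RefSeq table, which runs 50 bases past the start, there were 4 matches for Mt2, 3 for Mt1 and 2 for Slc30a1. The Mtf1 window held 0. Of 32851 RefSeq promoter windows of that length, 25.7% held at least 1 match, 7.11% at least 2, 1.97% at least 3 and 0.517% at least 4. In Mt1 the matches stood at -23 to -17, 3 to 9 and 21 to 27 relative to the start, so most of them fell past the annotated RefSeq start. A match is a run of letters and not a measured binding site.

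The table gives FPKM, a count of sequenced fragments corrected for transcript length and library size. The level of a gene is given here as scaled FPKM, the deposited value divided by a factor for its library. Sequencing depth is not in the table, and the low values of single-exon genes gave an estimate of 12.7 to 22.1 megafragments per library. At that depth a value of Mt1 rested on an estimated 449 to 3060 fragments, of Mt2 on 74 to 922, of Mtf1 on 43.4 to 113 and of Slc30a1 on 57.7 to 129, computed with the shortest annotated transcript. That transcript has 636 bases for Mtf1 and 677 for Slc30a1, while the longest have 7631 and 5244. For both genes the estimate is thus a low bound, and the true number can be much higher. In each library the deviation of all tested genes from their tissue mean was also regressed on gene GC content, which gives a GC slope (log2 per 10 percentage points). Libraries 1 and 2 (NP vehicle), 12 (AF vehicle) and 27 (AF MDL-800) stood apart with slopes under -0.1. In NP the slopes ran from -0.252 to 0.0259 under vehicle and from 0.0554 to 0.121 under MDL-800, without overlap. The GC content of the longest transcript was 52.9% for Mt1, 55.6% for Mt2, 49.4% for Mtf1 and 46.2% for Slc30a1. The summed level of 9 NP markers (T, Krt8, Krt18, Krt19 and others) was 25616 to 32851 in the NP libraries and 2494 to 15088 in AF. That of 8 AF markers was 791 to 1583 in NP and 3010 to 9417 in AF, so the sums followed the tissue labels. Single markers did not all do so. By limma (adjusted p under 0.05, vehicle), 7 of the 8 NP markers tested were higher in NP and 1 was lower. Of 8 AF markers, 7 were lower in NP and 1 had a positive difference. Of all genes tested, 21.8% were higher and 33.9% lower. AF vehicle library 9 had both the highest NP marker sum (15088) and the lowest AF marker sum (3010) of the AF libraries.

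In NP, Mt1 and Mt2 were higher in every MDL-800 library than in every vehicle library. Under vehicle, Mt1 measured 135.3, 103.1, 152.4, 149.0 and 158.8 scaled FPKM (NP libraries 1, 2, 3, 5 and 6). In NP MDL-800 it measured 227.0, 289.3, 517.3, 321.9 and 439.2 in libraries 15, 18, 19, 20 and 22. The lowest treated library thus lay above the highest vehicle library, and the treated group also spread more, with 359 ± 117 against 139.7 ± 22.2 (mean ± SD, n = 5). The log2 difference of Mt1, MDL-800 minus vehicle on log2(scaled FPKM + 1), was 1.31 (SE 0.214), a ratio of means of 2.57, and placed Mt1 at rank 84 of the 16383 genes tested. Groups that do not overlap were seen for 3.50% of those genes with MDL-800 higher and for 1.00% with it lower. The limma adjusted p was under 0.05 for 0.250% of them, or 41 genes (0.232% higher, 0.0183% lower), a count that ran from 2 without library 3 or 22 to 189 without library 6. These shares are background only, since this contrast chose the pair.

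The difference of Mt2 in NP was larger than that of Mt1. Under vehicle its levels were 37.1, 24.9, 26.6, 42.1 and 63.6 scaled FPKM, in the same order of NP libraries, and under MDL-800 they were 110.7, 125.0, 247.4, 98.6 and 239.8. Again no treated library fell among the vehicle libraries, and libraries 19 and 22 were the highest for both genes. The log2 difference of Mt2 was 2.02 (SE 0.324), a ratio of means of 4.23, at rank 26 of 16383. The Mt2 to Mt1 ratio had a median of 0.274 (0.175 to 0.400) in NP vehicle and of 0.478 (0.306 to 0.546) in NP MDL-800. Its groups overlapped, and it carries no test because the NP contrast chose both genes.

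Their regulator and the zinc exporter showed smaller differences in NP. Mtf1 measured 5.46, 6.48, 6.11, 7.82 and 7.16 scaled FPKM under vehicle and 8.03, 7.34, 8.19, 9.30 and 6.86 under MDL-800 (libraries in the same order), a log2 difference of 0.24 (SE 0.111). The Mtf1 groups overlapped, with 3 of 5 treated libraries above all vehicle libraries. Slc30a1, which MTF1 also switches on, measured 14.1, 14.1, 10.6, 8.98 and 9.27 under vehicle and 10.4, 12.1, 9.52, 6.77 and 10.3 under MDL-800, a log2 difference of -0.20 (SE 0.168). The Slc30a1 groups overlapped, and no treated library lay above all vehicle libraries. The 2 highest Slc30a1 values belonged to vehicle libraries 1 and 2, which stand apart by GC slope, and without them the difference was 0.0095.

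**Figure D1:**
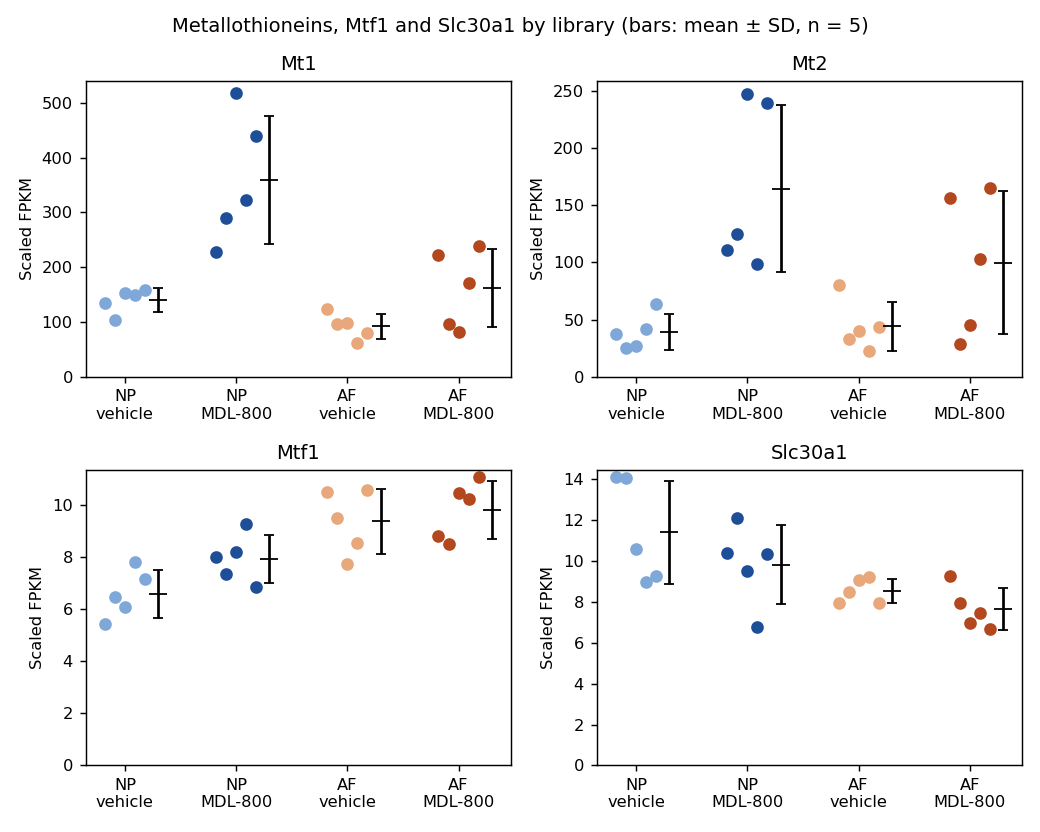
Scaled FPKM of Mt1, Mt2, Mtf1 and Slc30a1 in each library (points) of the 4 groups, with the mean ± SD of each group of 5 beside them (black). The NP MDL-800 points for Mt1 and Mt2 sit above all NP vehicle points, while AF MDL-800 points spread over a wide range, from 81.8 to 239.5 for Mt1.

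The GC slope of the libraries separated the NP groups, as Mt1 and Mt2 did, and the relation between slope and level within NP was not tested. Without vehicle libraries 1 and 2 the NP difference was 1.16 for Mt1 and 1.85 for Mt2. With each library's trend with GC content removed from all genes it was 1.28 and 1.9. With all libraries and no trend removed, the differences were 1.31 and 2.02. Without libraries 1 and 2 the slopes of the NP groups still did not overlap (up to 0.0259 under vehicle, from 0.0554 under MDL-800). Treatment and GC slope thus cannot be told apart in NP, and the part of the GC slope in the differences was not tested. The immediate early genes Fos, Fosb, Jun, Egr1, Ier2 and Atf3, which respond to handling and stress, were also higher on average under MDL-800. In NP 6 of 6 had a positive log2 difference, beside 42.6% of all genes, with a median of 1.23 beside -0.033. In AF 6 of 6 were positive too, beside 52.6%, with a median of 0.665 beside 0.0085. The summed level of these genes in NP was 54.5 to 680.0 under vehicle and 314.1 to 812.6 under MDL-800. By limma 0 of 6 were called in either tissue, beside 0.250% of all genes in NP and 0.00% in AF. Their part in the result was not tested. Markers of blood and other tissues overlapped between the NP groups: neutrophil genes summed to 195 to 2972 under vehicle and 180 to 1575 under MDL-800, and macrophage genes to 65.0 to 379 and 65.8 to 223. The median log2 difference in NP was lowest for muscle (-0.668, 0 of 6 positive), B and plasma cell (-0.47, 0 of 4) and bone markers (-0.205, 1 of 6). For the other blood and tissue lists it ran from -0.091 (macrophages) to 0.063 (fat).

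**Figure D2:**
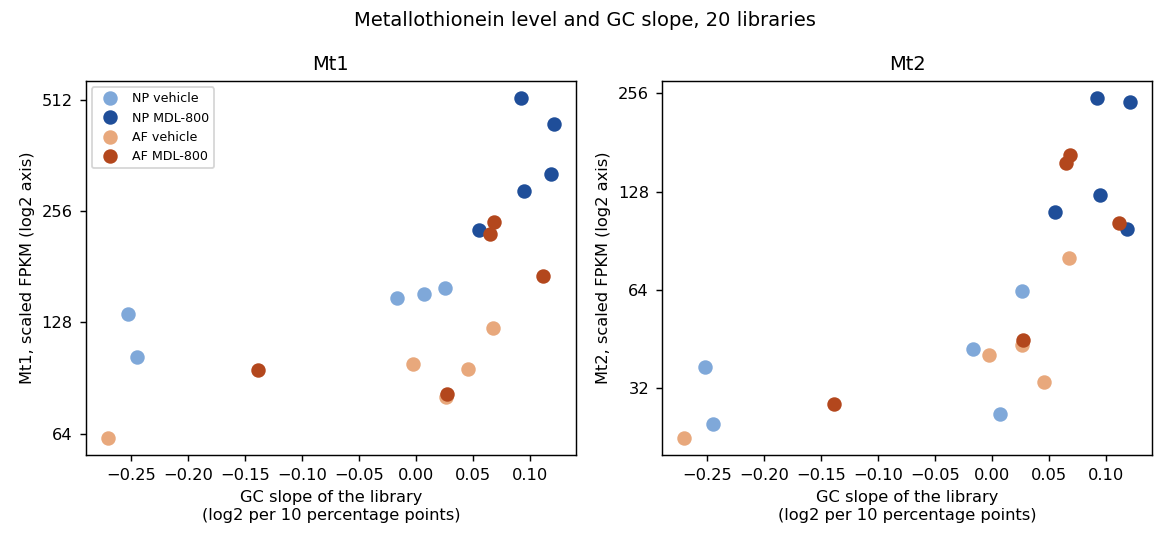
Level of Mt1 (left) and Mt2 (right) in scaled FPKM on a log2 axis against the GC slope of the same library, for all 20 libraries coloured by group. NP MDL-800 libraries have slopes of 0.0554 to 0.121 and hold the top value of each gene. Their range overlaps that of AF MDL-800: Mt2 was 165.3 in AF library 30 and 98.6 in NP library 20. At slopes under -0.1, 4 libraries lie apart.

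In AF, which played no part in choosing the genes, Mt1 and Mt2 were higher on average under MDL-800 but did not pass the test. Mt1 measured 123.4, 96.1, 98.5, 62.3 and 80.5 scaled FPKM in AF vehicle libraries 8, 9, 10, 12 and 13, and 221.5, 95.5, 81.8, 170.9 and 239.5 in AF MDL-800 libraries 25, 27, 28, 29 and 30. Libraries 25, 29 and 30 lay above every vehicle library, and libraries 27 and 28 lay among them. The log2 difference of Mt1 was 0.71 (SE 0.317, 95% interval 0.011 to 1.42), with limma adjusted p = 1 (unadjusted 0.0472) and an exact two-sided permutation p of 0.0952. The smallest p that 5 against 5 libraries allow is 0.0079. Its ratio of means was 1.76.

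Mt2 followed the same libraries in AF. It measured 80.2, 33.4, 40.4, 22.5 and 43.4 scaled FPKM in vehicle libraries 8, 9, 10, 12 and 13, and 156.4, 28.7, 44.9, 102.8 and 165.3 in MDL-800 libraries 25, 27, 28, 29 and 30. As with Mt1, libraries 25, 29 and 30 were above all vehicle libraries. The log2 difference of Mt2 was 0.99 (SE 0.506, 95% interval -0.13 to 2.11), with limma adjusted p = 1 and an exact permutation p of 0.127. The interval takes in 0 as well as a difference of the size seen in NP. Adjusted p was under 0.05 for 0.00% of the 16383 genes in AF (0 genes by limma, 270 at an unadjusted p under 0.05), so no gene passed. Groups did not overlap for 0.128% of genes with MDL-800 higher and 0.0977% with it lower, none of the 4 genes among them. Without libraries 12 and 27, the AF libraries with the lowest GC slopes, the difference was 0.74 for Mt1 and 1.15 for Mt2, each with limma adjusted p = 1.

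Mtf1 and Slc30a1 differed little between the AF groups. Mtf1 measured 10.5, 9.53, 7.74, 8.56 and 10.6 scaled FPKM under vehicle and 8.82, 8.53, 10.5, 10.3 and 11.1 under MDL-800, in the same order of libraries. Its log2 difference was 0.063 (SE 0.118, 95% interval -0.20 to 0.33, exact permutation p = 0.579). Slc30a1 measured 7.93, 8.48, 9.06, 9.24 and 7.96 under vehicle and 9.27, 7.97, 6.95, 7.47 and 6.68 under MDL-800. Both genes' groups overlapped. The log2 difference of Slc30a1 was -0.14 (SE 0.107, 95% interval -0.38 to 0.095, exact permutation p = 0.159), and limma adjusted p was 1 for both genes.

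The treatment difference was numerically larger in NP than in AF for both metallothioneins. The NP difference minus the AF difference was 0.60 (SE 0.401) for Mt1 and 1.03 (SE 0.634) for Mt2, against 0.17 (SE 0.156) for Mtf1 and -0.052 (SE 0.20) for Slc30a1. These carry no test because they contain the NP contrast. Over the 16383 genes, 0.00% passed for this difference (0 genes by limma, 611 at an unadjusted p under 0.05). The Mt2 to Mt1 ratio in AF had a median of 0.41 under vehicle (0.347 to 0.650) and 0.602 under MDL-800 (0.301 to 0.706), so the groups overlapped there too. Of the AF MDL-800 libraries, 27, 28 and 30 share a number in the column names with NP MDL-800 libraries 19, 20 and 22, in that order. Library 19 had the highest Mt1 and Mt2 of all NP libraries while library 27 was low for both genes, and libraries 22 and 30 were both high (Mt1 439.2 and 239.5, Mt2 239.8 and 165.3 scaled FPKM). Library 28 was low for both genes beside 321.9 for Mt1 and 98.6 for Mt2 in library 20. The labels do not say whether the number marks a mouse.

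**Figure D3:**
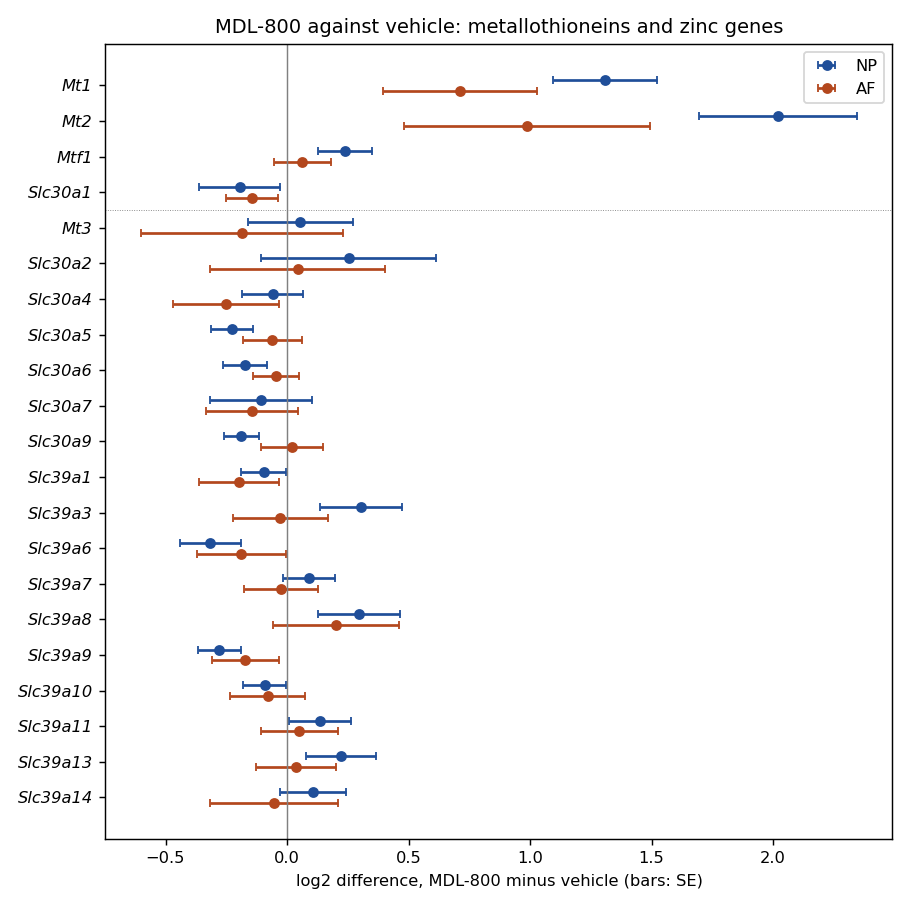
log2 difference, MDL-800 minus vehicle, with its SE, for the 4 genes (above the dotted line) and the 17 other tested metallothionein and zinc transporter genes, by tissue. In NP, Mt1 lies at 1.31 and Mt2 at 2.02, against 0.71 and 0.99 in AF, and the zinc transporters lie nearer to 0.

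Within AF, Mt1 and Mt2 ran together from library to library. Over the 10 AF libraries Pearson's r between their log2 values was 0.949 (permutation p = 1e-04, adjusted over the 6 pairs of genes 6e-04) and Spearman's rho was 0.818 (permutation p = 0.00587, adjusted 0.0352). Without the 2 libraries farthest from the median of Mt1, r was 0.868, and on deviations from the group means it was 0.931. Neither metallothionein tracked its regulator beyond the spread: r with Mtf1 was 0.293 for Mt1 and 0.462 for Mt2 (permutation p adjusted 0.429 and 0.353), with rho of 0.224 and 0.612 (adjusted 0.538 and 0.134). With Slc30a1, r was -0.281 for Mt1 and -0.351 for Mt2 (permutation p adjusted 0.429 for each), with rho of -0.224 and -0.479. Without the 2 farthest libraries these 4 values of r were 0.293, 0.604, -0.393 and -0.559.

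Mtf1 and Slc30a1 ran in opposite directions over the AF libraries. Their r was -0.802 (permutation p = 0.00681, adjusted 0.0204), and -0.907 without the 2 libraries farthest from the median of Mtf1. Spearman's rho was -0.745 (permutation p = 0.0173, adjusted 0.0519). On the FPKM as deposited, with no scaling, r was -0.728 with adjusted permutation p = 0.0616, which does not pass.

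**Figure D4:**
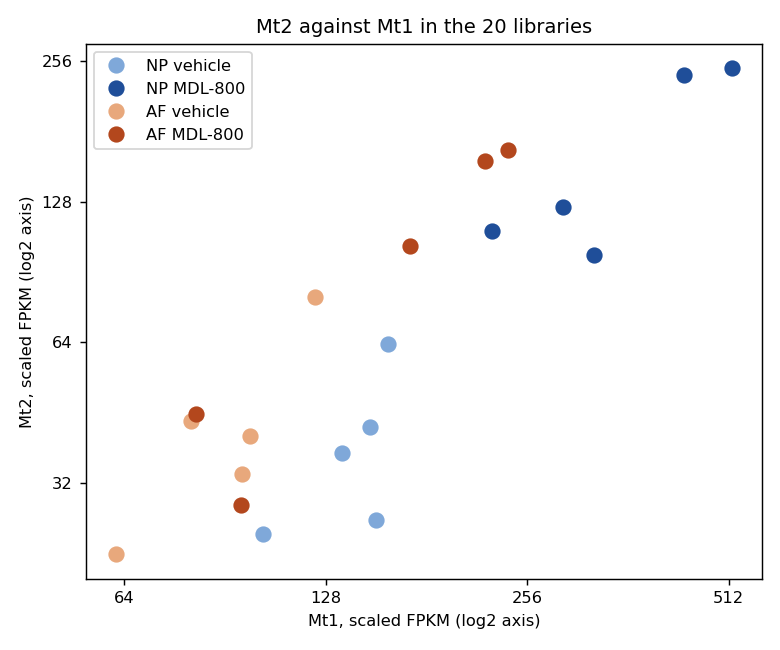
Mt2 against Mt1 in scaled FPKM, both on log2 axes, for the 20 libraries coloured by group. Points of all groups run along a common band, with AF MDL-800 libraries 27 and 28 among the vehicle libraries and the other AF MDL-800 libraries higher.

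The mean of Mt1 and Mt2 in AF was also set against 16 measures of the libraries, chosen after the data were seen: 12 marker lists, 2 slopes, the estimated depth and the length offset of the FPKM. No relation had a permutation p under 0.05 after adjustment. The strongest was with the GC slope, with r of 0.702 (permutation p = 0.0204, adjusted 0.272) and rho of 0.830 (permutation p = 0.00491, adjusted 0.0786). Without the 2 libraries farthest from the median GC slope r was 0.803, and within groups, on deviations from the group means, it was 0.702. AF libraries 25, 29 and 30, in which Mt1 and Mt2 were highest, had GC slopes of 0.0646, 0.111 and 0.0685, against -0.139 and 0.0272 in libraries 27 and 28. The neutrophil genes S100a8, S100a9, Ngp, Camp, Ltf, Elane and Mpo gave r of 0.636 (permutation p = 0.0522, adjusted 0.272; rho 0.612), or 0.461 without the 2 farthest libraries. Their summed level overlapped between the AF groups, with 6939 to 18132 under vehicle and 5826 to 31504 under MDL-800. The part of these measures in the metallothionein levels was not tested.

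Between the tissues, Mtf1 was lower and Slc30a1 higher in NP than in AF in vehicle-treated mice. Mtf1 was at 6.61 ± 0.917 scaled FPKM in NP and 9.39 ± 1.24 in AF (mean ± SD, n = 5 each), with only the top NP library and the bottom AF library crossing. The log2 difference, NP minus AF, was -0.45 (SE 0.124, limma adjusted p = 0.00994, exact permutation p = 0.0159). Slc30a1 was at 11.4 ± 2.52 in NP and 8.53 ± 0.607 in AF, with 4 of 5 NP libraries above all AF libraries, a difference of 0.36 (SE 0.140, limma adjusted p = 0.0487, exact permutation p = 0.0317). Called genes were common in this comparison, with 55.7% of all genes tested: 33.9% of the 16383 genes passed as lower in NP and 21.8% as higher, so these 2 calls are near the background.

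Under MDL-800 the directions were the same. Mtf1 was at 7.95 ± 0.930 in NP and 9.84 ± 1.11 in AF, a log2 difference of -0.28 (SE 0.106, limma adjusted p = 0.041, exact permutation p = 0.0317). Slc30a1 was at 9.81 ± 1.94 and 7.67 ± 1.02, a difference of 0.31 (SE 0.143) that did not pass (limma adjusted p = 0.0835, exact permutation p = 0.0714). Here 62.8% of genes were called: 37.2% passed as lower in NP and 25.6% as higher. The Slc30a1 call under vehicle was lost without any 1 of libraries 1, 2, 3, 8, 9, 10, 12 and 13, and the Mtf1 call under MDL-800 without any 1 of libraries 15, 18, 19, 22, 28, 29 and 30. With the 4 libraries of low GC slope left out, the vehicle differences were -0.40 for Mtf1 (limma adjusted p = 0.0552) and 0.18 for Slc30a1 (0.214), and neither passed.

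The tissue differences also depend on how libraries are scaled. Quantile normalization moved the median difference of all genes by 0.285 under vehicle and 0.289 under MDL-800. Mtf1 then measured -0.11 and 0.023, so its sign turned under MDL-800, and Slc30a1 0.66 and 0.64. Relative to the median of all genes the values changed less: under vehicle Mtf1 stood at -0.367 as scaled here and -0.309 after quantile normalization, and Slc30a1 at 0.441 and 0.459. Under MDL-800 these were -0.193 and -0.182 for Mtf1 and 0.390 and 0.430 for Slc30a1.

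Mt1 and Mt2 did not share a tissue pattern in vehicle-treated mice. Without a test, since NP libraries chose them, Mt1 was 0.62 higher on the log2 scale in NP than in AF (139.7 ± 22.2 against 92.2 ± 22.7 scaled FPKM), and Mt2 was at -0.13 (38.9 ± 15.6 against 44.0 ± 21.8), which ran from -0.34 to 0.11 with each library left out. Ordered by mean, Mt1 ran from AF vehicle (92.2) through NP vehicle (139.7) and AF MDL-800 (162) to NP MDL-800 (359). The libraries of the middle pair overlapped, at 103.1 to 158.8 in NP vehicle and 81.8 to 239.5 in AF MDL-800, and this pair was not tested. Mt2 ran from NP vehicle (38.9) and AF vehicle (44.0), which overlapped, to AF MDL-800 (99.7) and NP MDL-800 (164), which overlapped in part. Levels per length put Mt1 above Mt2 in all 20 libraries, and both above Mtf1 and Slc30a1.

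The other tested metallothionein, Mt3, the form best known from brain, had a tissue pattern of its own. It measured 14.7, 8.57, 27.0, 9.88 and 13.5 scaled FPKM in AF vehicle libraries 8, 9, 10, 12 and 13. In NP vehicle it was listed at 0 in libraries 2 and 3 and at 0.15, 0.148 and 1.07 in libraries 1, 5 and 6. No NP library of either treatment reached the lowest AF library (4.13). Groups apart in this direction were seen for 25.9% of genes under vehicle and 30.5% under MDL-800. The log2 difference of Mt3, NP minus AF on log2(scaled FPKM + 1), was -3.58 under vehicle (SE 0.300, limma adjusted p = 9.3e-06) and -3.34 under MDL-800 (SE 0.362, limma adjusted p = 2.1e-05). With MDL-800 it did not pass in either tissue, at 0.055 in NP (limma adjusted p = 0.944) and -0.19 in AF (limma adjusted p = 1). The sign of either value turned when single libraries were left out. Mt4, the metallothionein of stratified epithelia, was listed at 0 in all 20 libraries.

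Of 25 further genes of zinc handling (2 other metallothioneins, 9 further SLC30 exporters and 14 SLC39 importers), 17 passed the filter on low values. Under MDL-800, 0 of the 17 were called in NP and 0 in AF by limma, beside 0.250% and 0.00% of all genes tested. At an unadjusted limma p under 0.05 there were 4 in NP and 0 in AF, beside 2311 and 270 of the 16383 genes. With so few genes called at all, this is not a result about zinc genes. The median log2 difference of the 17 was -0.059 in NP and -0.054 in AF beside -0.033 and 0.0085 over all genes. Between tissues, 5 were higher and 5 lower in NP under vehicle, and 5 and 6 under MDL-800. These counts lie near the background of 55.7% and 62.8% of all genes called, so they are not a result about zinc genes as a group. In bulk tissue, fewer cells of a type and less RNA per cell cannot be told apart. Neutrophil, macrophage, B cell, muscle, red cell, bone, fat, nerve and endothelial markers were called lower in NP in both comparisons, for all tested genes of those lists. Over all genes, 33.9% were called lower under vehicle and 37.2% under MDL-800. Neutrophil genes, for example, summed to 180 to 2972 in NP and 5826 to 31504 in AF. The part of the cells behind these marker lists in the differences was not tested.

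Slc39a8 (ZIP8), an importer of zinc and manganese, had the largest tissue difference among the transporters. It was at 129.5 ± 30.4 scaled FPKM in NP vehicle and 33.1 ± 11.6 in AF vehicle, with every NP library above every AF library, as for 15.1% of genes (18.5% under MDL-800). The log2 difference was 1.97 (SE 0.245, limma adjusted p = 7.7e-05), and 2.07 (SE 0.188, limma adjusted p = 6.8e-06) under MDL-800. Slc30a9, a transporter of mitochondrial zinc, was at 99.9 ± 8.92 in NP and 66.8 ± 12.3 in AF under vehicle (log2 difference 0.59, limma adjusted p = 0.00274). The vesicular exporters Slc30a4 and Slc30a2 were also called higher in NP in both comparisons, but each lost its vehicle call without any 1 of 6 libraries. Libraries 2, 3, 5, 8, 9 and 13 were those for Slc30a4, and 1, 2, 6, 10, 12 and 13 for Slc30a2.

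Slc30a5 and Slc30a7, which load zinc into the secretory pathway, were lower in NP. Slc30a5 was at 12.9 ± 1.44 scaled FPKM in NP vehicle and 17.4 ± 2.27 in AF vehicle (log2 difference -0.40, limma adjusted p = 0.0111), and Slc30a7 at 4.55 ± 1.02 and 7.94 ± 2.25 (-0.67, limma adjusted p = 0.0139). The plasma membrane importers Slc39a1 and Slc39a10 were lower too, with -0.48 and -0.51 under vehicle (limma adjusted p = 0.0141 and 0.00168). Slc30a5, Slc30a7, Slc39a1 and Slc39a10 were called in the same direction under MDL-800, where Slc30a6, the partner of Slc30a5, was also lower (-0.31, limma adjusted p = 0.014). Slc30a6 turned to 0.11 under quantile normalization. That scaling also ended the vehicle calls of Slc30a5 (-0.16), Slc30a7 (-0.27) and Slc39a10 (-0.072) and the MDL-800 calls of Slc30a7, Slc39a1 and Slc39a10. Leaving out the libraries of low GC slope ended the vehicle calls of Slc30a2 (0.54), Slc30a5 (-0.30) and Slc39a1 (-0.39). Slc39a6 was called higher in NP only under vehicle (0.31, limma adjusted p = 0.0434) and Slc39a3 only under MDL-800 (0.53, limma adjusted p = 0.0168), and the test of whether the difference depends on treatment called neither (limma adjusted p = 1.00 for each). The vehicle call of Slc39a6 was lost without any 1 of libraries 1, 2, 5, 6, 8, 9, 10 and 13. Slc39a7, Slc39a9, Slc39a11, Slc39a13 and Slc39a14 were called in neither comparison.

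**Figure D5:**
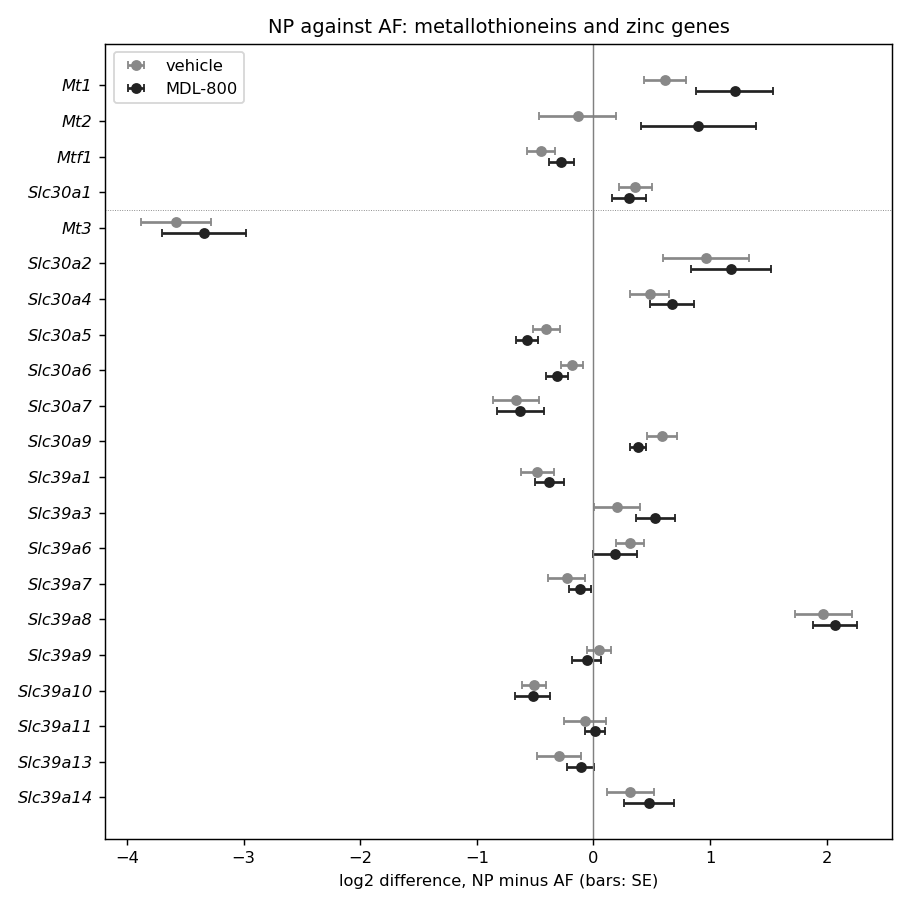
log2 difference, NP minus AF, with its SE, for the 4 genes (above the dotted line) and the 17 other tested metallothionein and zinc transporter genes, under vehicle (grey) and MDL-800 (black). Mt3 lies at -3.58 and -3.34 and Slc39a8 at 1.97 and 2.07, and most other genes lie within 1 of 0.

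Lists for other known inducers of metallothioneins were read beside them. A glucocorticoid list held 14 genes (the receptor gene Nr3c1, Fkbp5, Tsc22d3, Per1 and others). Of these, 12 (85.7%) had a positive NP treatment difference, beside 42.6% of all genes tested. Their median was 0.27 beside -0.033 over all genes, and 0 were called by limma. At an unadjusted limma p under 0.05 there were 4, beside 2311 of all 16383 genes. Their smallest p belonged to Bcl6, a transcriptional repressor, at 0.44 (SE 0.123, limma adjusted p = 0.137). In AF the median was 0.068 with 10 of 14 positive (71.4%, beside 52.6% of all genes) and 0 called. Of 8 NRF2-induced genes, which answer oxidative stress, 0 were called by treatment in either tissue, with medians of 0.022 in NP and 0.067 in AF. Of 6 STAT3 and acute-phase genes 0 were called, with medians of 0.037 and 0.061. Over all genes the medians were -0.033 in NP and 0.0085 in AF, and 0.250% and 0.00% were called. At those shares, 0 called in lists of this size is not a result about them.

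Genes linked to MTF1 or to copper, the other metal that metallothioneins hold, were likewise not called by treatment. Over all genes 0.250% were called in NP and 0.00% in AF, so this is not a result about these lists. Among 5 further MTF1-linked genes (Gclc, Selenoh, Ndrg1, Csrp1 and Slc40a1) the smallest p in NP was that of Selenoh, a selenoprotein, at 0.42 (SE 0.145, limma adjusted p = 0.226). Among 10 copper genes it was that of the copper chaperone Atox1, at 0.32 (SE 0.131, limma adjusted p = 0.301). Between tissues, 4 of the 5 MTF1-linked and 7 of the 10 copper genes were called under vehicle, in both directions, where 55.7% of all genes were. The iron exporter Slc40a1 was lower in NP (-3.23, limma adjusted p = 1.2e-04) and Ndrg1 higher (1.14, limma adjusted p = 0.00264), both under vehicle. The copper transporter family genes Slc31a1 and Slc31a2 were lower in NP (-0.94 and -1.41 under vehicle, limma adjusted p = 2.5e-04 and 1.8e-05), and the copper pump Atp7a was higher (0.61, limma adjusted p = 5.5e-04). Of the 8 NRF2-induced genes 6 were lower and 1 higher in NP in each comparison, where 33.9% of all genes were lower and 21.8% higher under vehicle, and 37.2% and 25.6% under MDL-800.

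The genes whose levels ran most like the mean of Mt1 and Mt2 were looked for among 10711 genes with a mean of at least 5 scaled FPKM. These values are descriptions over 20 libraries that share tissue, treatment, depth and GC slope. On the levels themselves the highest Pearson r were those of Rplp2 (0.933), a protein of the ribosome, Zfp64 (0.920), the pseudogene Gm14303 (0.914), Rpl29 (0.910) and Scamp3 (0.910). On deviations from the group means they were those of Leng8 (0.854), Rpl29 (0.849), Pigyl (0.848), Rplp1 (0.847) and Hist1h2bc (0.845). Of these, Rplp2 was at 227.5 scaled FPKM on average in NP vehicle, 830.0 in NP MDL-800, 232.0 in AF vehicle and 371.8 in AF MDL-800. Mtf1 and Slc30a1 were not like the metallothioneins by this measure, with r of 0.057 and -0.065 on levels and 0.20 and -0.13 on deviations. Mt1 and Mt2 had an r with each other of 0.877 and 0.885.

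Shared sequence limits how far single genes can be told apart. No other gene matched Mt1 at 95% identity or more over at least 50 bases, and Mt1 and Mt2 matched each other at 82.6% over 92 bases or 79.2% over 192, depending on which was the query. Mt2 shared 212 bases at 100% identity with Gm45774, a gene on the opposite strand over the same locus, which stayed at 0.0385 to 0.171 scaled FPKM in all libraries. Mtf1 shared 721 bases with 1110065P20Rik and Slc30a1 469 bases with 1700034H15Rik, both on the opposite strand and both at 100%. The libraries were stranded, but whether counting used the strand is not given in the sources used here, so the smaller differences of Mtf1 and Slc30a1 are uncertain to that extent. 1110065P20Rik was at 4.15 to 12.0 scaled FPKM, close to Mtf1, and 1700034H15Rik at 0.162 to 2.64.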

How the data were processed

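The authors deposited 1 table of FPKM values for 51789 genes in 20 libraries, rounded to 2 decimals. Per the labels' protocols, a stranded kit for total RNA with removal of ribosomal RNA was used. Per the submitters' processing notes, STAR 2.7.11b and mm10 were used. The counting program and annotation are not given in the sources used here. Low values fit transcript lengths shortened by 175 to 195 bases.

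Each library was scaled by its median ratio to the geometric means of 11308 genes (factors of 0.933 to 1.06) and tested as log2(value + 1), which understates changes of low genes. The filter required 1 FPKM in 5 or more libraries and left 16383 genes, Mt1, Mt2, Mtf1 and Slc30a1 among them. Pairs of groups were compared with limma 3.58.1 in R 4.3.3 (mean-variance trend, two-sided, Benjamini-Hochberg), 2 groups in each fit, and all 4 for the difference between tissues. A gene is called at adjusted p under 0.05. On simulated data with 200 genes changed by 1 (log2), 126 were found in AF and 161 in NP. The simulation drew independent normal noise with the spread of each gene, so it checks the fit. It does not give the power for these libraries, or for genes that spread as Mt1 and Mt2 do in AF. Correlations used 100000 resamples. Promoters came from RefSeq and matches from blastn 2.17.0.

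The genes and the 8 pathway and 12 marker lists were chosen with earlier results of these data known. Named genes were the followed genes, all zinc genes, and of other lists up to 4 called genes by smallest p, or the gene with the smallest p, plus the 5 genes most like Mt1 and Mt2 by Pearson r. Alternatives were pseudocount, filter, scaling, GC and length trends, samples in the fit, each library left out, and, added after seeing the data, a replicate block and the libraries of low GC slope left out.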

Additional observations from a re-analysis of the deposited data

Results flagged for a closer look

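Of 84 groups of 5 libraries checked over the 4 genes and the zinc genes, 3 held a library far from the others, where chance gives about 1 group in 20. All 3 are in NP vehicle. Mt3 was at 1.07 scaled FPKM in library 6, with the others between 0 and 0.15. Slc30a6 was at 5.88 in library 1, with the nearest other library at 5.29. Slc39a6 was at 11.9 in library 3, with the others between 15.7 and 16.5. No group of Mt1, Mt2, Mtf1 or Slc30a1 held such a library.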

How the results depend on the processing

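Mt1 and Mt2 kept the sign of their treatment differences in every alternative run: 1.16 to 1.31 and 1.85 to 2.05 in NP over 8 alternatives, 0.68 to 0.74 and 0.96 to 1.15 in AF, and 1.16 to 1.46, 1.85 to 2.22, 0.54 to 0.93 and 0.73 to 1.35 with each library left out. The 41 genes called in NP became 18 on FPKM as deposited, 4 with all 4 groups in the fit, 74 with the length trend removed, 7 without the filter, 70 under quantile normalization, 11 without the libraries of low GC slope, and 2 to 189 with each library left out. Genes called by treatment in AF, and for the treatment difference in NP minus that in AF, were 0 to 1 in each case with each library left out (1 without library 25 or 29, and without library 30). Mtf1 in vehicle fell to -0.11 under quantile normalization and -0.40 without the libraries of low GC slope, and lost its call in both. Under MDL-800 Mtf1 was at -0.22 with the GC trend removed, 0.023 under quantile normalization, and -0.33 to -0.23 with each library left out. Slc30a1 in vehicle lost its call at 0.36 without the filter, 0.30 as deposited, 0.30 with the length trend removed, 0.18 without the libraries of low GC slope, and ranged from 0.28 to 0.43 with each library left out. Under MDL-800 it gained a call at 0.64 (quantile) and 0.35 (GC trend removed), and ranged from 0.23 to 0.42. Slc30a6 turned to 0.11 under quantile normalization. Mt3 by treatment ranged from -0.42 to 0.14 in AF and -0.049 to 0.24 in NP with each library left out, was -0.37 in NP with the GC trend removed, and was 0.039 in AF and -0.071 in NP without the libraries of low GC slope. In AF, r of Mt1 with Slc30a1 turned to 0.025 on deviations from the group means, and r of Mtf1 with Slc30a1 was -0.73 as deposited. The cause was not tested.

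The column names share numbers between tissues, and the main tests did not pair them. The correlation of same-numbered deviations was over 0.1 in only 2 of 5 vehicle pairs and 1 of 3 MDL-800 pairs. A low correlation between different tissues cannot show that the libraries came from different mice, so pairing remains possible. With these numbers as a replicate block, 8783 genes were called between tissues in vehicle (9127 without) and 7858 under MDL-800 with 3 pairs (10290 without), Slc30a1 in vehicle was 0.36 and Mtf1 under MDL-800 -0.28, neither called. For the treatment comparisons no paired analysis was possible because vehicle and MDL-800 libraries share no number.

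Depth was estimated, not given, and low genes such as Mt3 in NP rest on few fragments.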
